A study of Mus musculus with 3 samples.

Results

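The genes described here are 40 type I interferon-stimulated and nucleic-acid sensing genes, read in CD4-positive effector memory T cells of the mouse. Members were chosen by gene symbol in the GENCODE M21 annotation of the deposited gene and transcript tables, out of 55536 mouse genes and 22028 protein-coding genes. Of the 40, 39 matched by symbol and Mb21d1 matched by its synonym Cgas. By role, 33 members were counted as effectors, the genes that interferon induces, and 7 as sensing genes (Ddx58, Ifih1, Dhx58, Mb21d1 and Zbp1 with the adaptors Mavs and Tmem173). The cells are primary T cells with an alpha-beta receptor from 1 male C57BL/6J mouse aged 7 months, with no treatment named in the labels. Polyadenylated RNA was sequenced in 3 libraries, which the labels number as technical replicates 1 to 3 of 1 biological replicate and which form 1 group. No untreated, stimulated or other cell group stands beside them, so the values are levels in these cells and not responses. Every SD and p-value below measures the spread between libraries of 1 mouse, except the assignment SDs. Those are deposited for each count and describe how uncertain the assignment of reads is within 1 library.

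Type I interferons are secreted when a cell detects foreign or misplaced nucleic acid. Cytosolic helicases sense RNA and signal through MAVS, and the enzyme cGAS senses DNA and signals through STING. Secreted interferon binds the receptor of IFNAR1 and IFNAR2, whose kinases JAK1 and TYK2 activate a transcription factor complex that includes STAT2 and IRF9. That complex binds the interferon-stimulated response element (ISRE) in promoters and switches on effectors that degrade RNA, block translation, trap virions or conjugate ISG15 to proteins. Most sensors are themselves induced by interferon, and many T cells keep a low level of these genes without infection.

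The gene counts summed to between 14152590 and 16251564 per library, and the 40 members took 0.195% to 0.200% of them. Cell type markers, chosen with earlier results of these data known, were read for T cells and for other cells. Of 6 core T cell genes, 6 were present, led by Trac. They summed to 8110 to 8989 TPM per library (a length-normalised share of transcripts). The lists held no marker of the effector memory state, so that part of the label was not checked. Of the 6 markers of plasmacytoid dendritic cells, the professional interferon producers, none reached a mean of 1 TPM. Their summed level was 1.39 to 1.76 TPM, Klk1 had 0 counts in all 3 libraries, and Ccr9 was highest at 0.397 TPM. The summed markers of monocytes and macrophages (0.89 to 2.57 TPM, led by C1qa), B cells (0.86 to 1.68, led by Cd79a), neutrophils (0.17 to 2.17, led by Mpo) and stromal or endothelial cells (0.41 to 1.65, led by Cdh5) also held no gene with a mean of 1 TPM. Of the CD8 T cell genes, Cd8b1 had a mean of 4.16 TPM and Cd8a 0.0433 TPM. In such bulk libraries a gene expressed in fewer cells and a gene expressed at less RNA per cell cannot be told apart.

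The response element was read in the promoters first, because it is a sequence through which interferon is known to reach many of the genes it induces. RefSeq promoter windows on GRCm38.p6, from 250 bases before to 50 bases after an annotated start, were matched to 29 members. The ISRE core, the letters GAAA, then 2 bases of any kind, then GAAA again, was searched on both strands, and overlapping matches were counted separately. It was present in 13 of the 29 members with a window (44.8%) and in 1079 of all 27025 genes with one (3.99%). A longer form that needs a C after the core, also on both strands, was present in 10 members (34.5%) against 0.944% of all genes. Of the 13 members, 9 held every match upstream of the start and 4 (Ddx58, Ifih1, Eif2ak2 and Ifitm3) held every match past it. A match describes letters in the window, and binding was not measured in these data. The members were chosen as interferon-stimulated and sensing genes, so their share is a description and not a test. Mx1, Mx2, Oas2, Ifi27, Dhx58, Usp18, Rtp4, Zbp1, Parp9, Parp14 and Tmem173 had no window.

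The upstream stretches of 8 effectors show how differently the element is laid out. They are read 5′ to 3′ on the gene's strand, with every base of a match in capitals and with RefSeq windows as the source. Isg15 (chr4:156200855-156200916, minus strand) holds 3 overlapping matches, and Oas1a (chr5:120907526-120907565, minus strand) and Bst2 (chr8:71537567-71537622, minus strand) hold overlapping pairs. Ifit1 (chr19:34640765-34640833, plus strand), Ifit3 (chr19:34583353-34583436, plus strand) and Ifit3b (chr19:34607749-34607832, plus strand) each hold a spaced pair on the opposite strand, which reads TTTC first. Oas3 (chr5:120777705-120777754, minus strand) and Rsad2 (chr12:26456543-26456592, minus strand) hold a single match.
Isg15: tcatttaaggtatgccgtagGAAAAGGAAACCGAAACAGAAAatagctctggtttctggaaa
Oas1a: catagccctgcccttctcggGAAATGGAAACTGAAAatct
Bst2: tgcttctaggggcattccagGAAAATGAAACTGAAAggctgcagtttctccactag
Ifit1: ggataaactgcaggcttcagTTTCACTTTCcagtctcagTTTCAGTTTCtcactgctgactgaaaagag
Ifit3: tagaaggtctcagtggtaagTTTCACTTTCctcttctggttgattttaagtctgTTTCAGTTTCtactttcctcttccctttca
Ifit3b: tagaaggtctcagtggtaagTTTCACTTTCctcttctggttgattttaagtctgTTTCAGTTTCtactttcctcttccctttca
Oas3: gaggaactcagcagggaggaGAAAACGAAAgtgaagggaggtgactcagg
Rsad2: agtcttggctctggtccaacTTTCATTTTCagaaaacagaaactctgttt

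The Ifit3 and Ifit3b stretches were identical at 84 of 84 bases, although the starts annotated for the genes place them 32 bases apart in distance from the start. Over the whole windows laid on each other, 201 of 268 bases (75%) were the same. For the RNA sensors Ddx58 (chr4:40239806-40239831, minus strand) and Ifih1 (chr2:62646206-62646231, minus strand) and the kinase gene Eif2ak2 (chr17:78882537-78882562, minus strand), the match lies within the first bases after the start.
Ddx58: tgaggcagTTTCGATTTCctatggcc
Ifih1: agagaatcGAAACAGAAAccgatctg
Eif2ak2: tccgccggGAAAACGAAAcagaagag
Among the 29 members with a window, the core did not go with a higher level. The 13 members with it had a median of 12.01 ± 0.681 TPM (SD, n = 3 libraries), and the 16 members with a window but no match had 15.9 ± 1.16 TPM. The set without a match includes Sp100 and Samhd1, which were among the highest members, and the set with one ranges from Ifit3b at 1.07 TPM to Isg15 at 95.6 TPM. No test was made of that difference. The 11 members without a window, which could not be placed in either set, had a median of 27.1 ± 2.63 TPM.

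**Figure D1:**
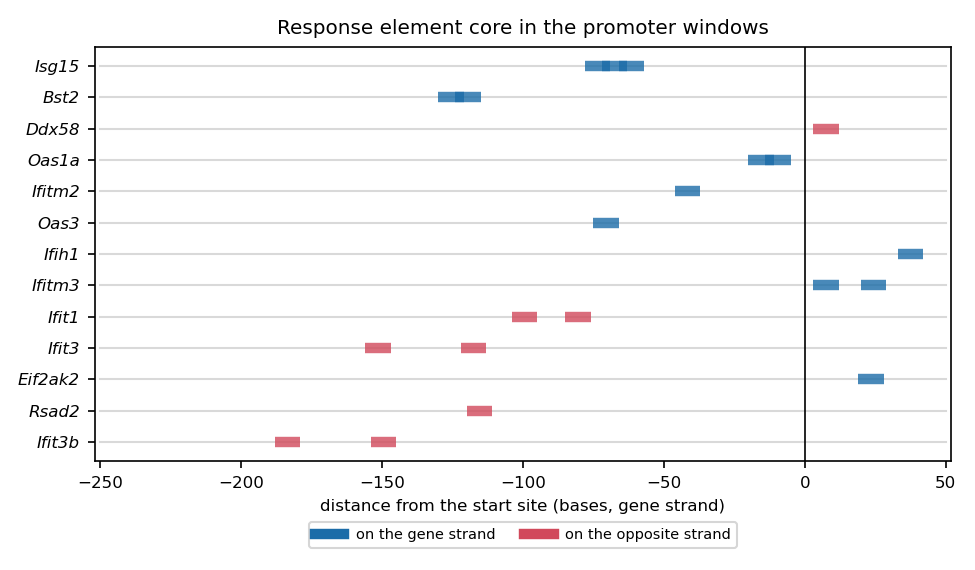
Position of each match of the ISRE core (blue on the gene strand, red on the opposite strand) in the RefSeq promoter windows of the 13 members that hold one, ordered from the highest to the lowest mean TPM. The x axis gives bases from the annotated start, and 9 members have all matches to the left of it and 4 to the right.

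Nearly all members were transcribed at a measurable level. Of the 40, 37 reached 1 TPM in every library, against 10013 of 22028 protein-coding genes (45.5%). The 3 that did not were Oas2, Mx2 and Ifit3b. The mean reached 10 TPM for 25 members and 100 TPM for 4 members, beside 7544 and 1723 of the 22028 protein-coding genes. Of the 10013 protein-coding genes at 1 TPM in every library, 7543 and 1723 reached these marks. The median over members was 15.7 ± 0.801 TPM (SD, n = 3 libraries), beside 0.72 ± 0.131 TPM over all protein-coding genes and 27.9 ± 0.752 TPM over the protein-coding genes that reached 1 TPM in every library. Expression was concentrated: Sp100, Ifi27, Samhd1 and Ifi35 held 53.5% to 55.9% of the members' summed 1823 to 1943 TPM.

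Sp100, a component of PML nuclear bodies, was the highest member at 417.53, 458.42 and 431.30 TPM in libraries 1, 2 and 3, above 98.6% of protein-coding genes. Ifi27, the gene of a small membrane-associated protein, followed at 253.09, 272.96 and 235.48 TPM. Samhd1, which hydrolyses deoxynucleotides and starves reverse transcription, had 236.63, 240.02 and 217.87 TPM. The ranges of Ifi27 and Samhd1 overlapped, and both lay below every Sp100 library. Ifi35, an interferon-induced leucine zipper protein gene, had 104.00, 114.89 and 101.94 TPM.

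The antiviral ubiquitin-like modifier gene Isg15 had 96.43, 94.32 and 96.16 TPM, with a spread of 1.201% of its mean. Bst2, whose product tetherin holds budding virions at the cell surface, had 88.56, 76.38 and 75.79 TPM. Usp18, the protease that removes ISG15 from proteins and dampens the interferon receptor, had 51.86, 66.49 and 43.84 TPM. Usp18 was less even than Isg15, with its highest value in library 2 and its lowest in library 3.

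Adar, which edits adenosine to inosine in double-stranded RNA, had 53.91, 47.71 and 48.89 TPM. The exonuclease gene Isg20 had 31.25, 40.57 and 32.13 TPM, with library 2 above the other two. Of the effectors that are lower and outside the gene families, Xaf1, Rtp4, Trim25, Eif2ak2 and Ifi44 had means between 3.51 TPM (Ifi44) and 34.1 TPM (Xaf1).

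**Figure D2:**
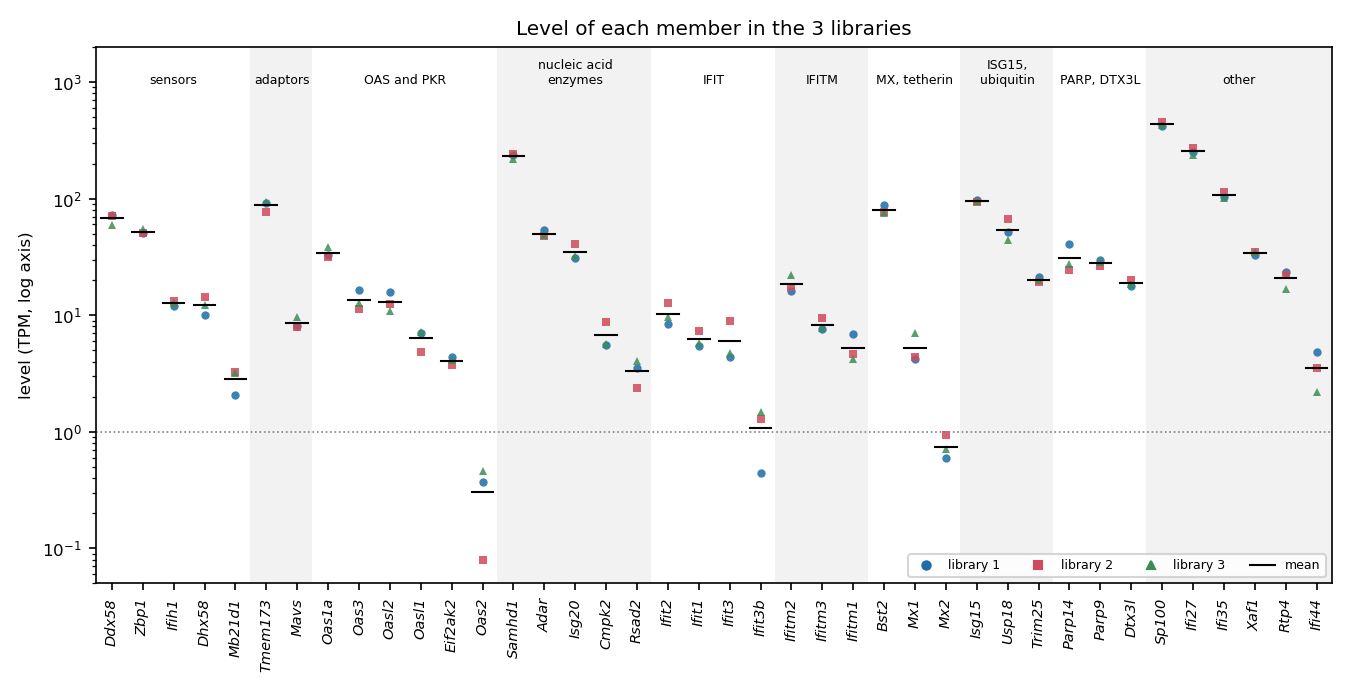
Level of each of the 40 members in libraries 1 (circle), 2 (square) and 3 (triangle), in TPM on a log axis, grouped by role, with a black bar at the mean and a dotted line at 1 TPM. Sp100 lies above all other members in each library, and Oas2, Mx2 and Ifit3b are the members with a point below the line.

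The 7 sensing genes covered a narrower range of levels than the 33 effectors, and a smaller set tends to span a smaller range. Tmem173, which encodes the DNA-sensing adaptor STING, was the highest of the 7 at 91.57, 77.40 and 93.36 TPM. Ddx58, the gene of the RNA helicase RIG-I, had 72.31, 71.60 and 59.24 TPM. Zbp1, a Z-form nucleic acid sensor that can trigger necroptosis, had 50.77, 50.77 and 54.96 TPM. These 3 genes did not overlap in their library values.

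The other helicases were lower. Ifih1, the gene of MDA5, which senses long double-stranded RNA, had 11.96, 13.31 and 12.71 TPM. Dhx58, the gene of LGP2, which modulates both helicases, had 10.05, 14.43 and 12.18 TPM. The Ifih1 and Dhx58 values overlapped, and every library held more Ddx58 than either. Mavs, the mitochondrial adaptor of both RNA helicases, had 8.09, 7.88 and 9.56 TPM and lay below all 3 libraries of its DNA-sensing counterpart Tmem173. Mb21d1, the gene of the DNA sensor cGAS, was the lowest of the 7 at 2.05, 3.28 and 3.19 TPM, so the enzyme and the adaptor of that pathway stood at opposite ends of the sensing genes by gene TPM.

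The median of the 33 effectors was 16.9 ± 0.523 TPM and that of the 7 sensing genes 13.03 ± 1.27 TPM (SD, n = 3 libraries), with the ratio between 1.21 and 1.38 in the 3 libraries. The sensing genes, from 2.84 to 87.4 TPM, lie wholly within the effector range of 0.303 to 436 TPM. Without length normalisation the order turns: the median estimated count was 249 ± 18.5 for effectors and 423 ± 35.4 for sensing genes. On CPM, counts scaled to library size alone, the ratio of effector to sensing median was 0.590 ± 0.0078. When the Oas genes and Eif2ak2, which bind double-stranded RNA themselves, were counted as sensing, the TPM ratio was 1.67 ± 0.0953. No test was made between the sets, since genes are not replicates.

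Families of related genes were spread over wide ranges. The Ifit genes encode antiviral proteins, of which IFIT1 binds viral RNA lacking host cap methylation. The 4 members lie on chromosome 19 (mm10) in the order Ifit2 (chr19:34550694-34576419), Ifit3 (chr19:34583531-34588731), Ifit3b (chr19:34607970-34613401) and Ifit1 (chr19:34640871-34650009). Ifit2 had 8.45, 12.65 and 9.69 TPM. Ifit1 had 5.48, 7.36 and 5.73 TPM. Ifit3 had 4.41, 8.91 and 4.73 TPM. All 3 were highest in library 2 and lowest in library 1, and none passed the test between libraries described with Parp14.

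Ifit3b had 0.44, 1.29 and 1.48 TPM. Its coding sequence matches that of Ifit3 at 1198 of 1209 bases (99.1%), so the division of reads between these copies is uncertain. The deposited assignment SD reached 29.3% of the Ifit3b count and 5.57% of the Ifit3 count in a library.

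The OAS enzymes make the second messenger that activates RNase L, and their genes Oas1a (chr5:120896256-120907521), Oas3 (chr5:120753098-120777661) and Oas2 (chr5:120730333-120749853) form a cluster on chromosome 5. Oas1a had 32.54, 31.41 and 38.18 TPM. Oas3 had 16.46, 11.35 and 12.82 TPM. Oas2 was nearly absent, at 0.37, 0.08 and 0.46 TPM, and the library values of these 3 genes did not overlap.
Of the OAS-like genes, Oasl2 had 15.85, 12.41 and 10.77 TPM. Oasl1, a translational inhibitor of Irf7, had 7.07, 4.85 and 7.24 TPM and lay below every Oasl2 library.

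The Ifitm genes encode small membrane proteins that block virus entry. Ifitm2 had 16.27, 17.49 and 21.94 TPM. Ifitm3 had 7.68, 9.38 and 7.80 TPM. Ifitm1 had 6.92, 4.61 and 4.22 TPM. The 3 genes were ordered the same way in every library.

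The Mx genes encode antiviral GTPases, and C57BL/6 is among the inbred strains known to carry a defective Mx1 allele. Mx1 had 4.21, 4.41 and 6.98 TPM, with library 3 above the others. Mx2 had 0.59, 0.93 and 0.71 TPM, below every Mx1 library. Its transcripts Mx2-202 and Mx2-204 are annotated as polymorphic pseudogene. Rsad2, the gene of the radical enzyme viperin, had 3.50, 2.37 and 4.01 TPM. Its neighbour Cmpk2, a mitochondrial nucleotide kinase gene at chr12:26469204-26479837, had 5.57, 8.82 and 5.69 TPM. Library 2 was thus the lowest for Rsad2 and the highest for Cmpk2. The normalised counts of Cmpk2 differed by only 1.10-fold between libraries, and its coding transcripts took 62.9% of its TPM in library 2 against 96.1% and 96.3% in libraries 1 and 3. In the deposited posterior mean, which averages over read assignments, these shares were 55.5% against 79.0% and 71.0%.

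Parp9 and Dtx3l encode an ADP-ribosyltransferase and a ubiquitin ligase that act as a complex. They are neighbours on opposite strands of chromosome 16 (Parp9 at chr16:35938470-35972605 and Dtx3l at chr16:35926511-35939151) and share 458 exon bases. Parp9 had 29.58, 26.68 and 28.52 TPM. Dtx3l had 17.96, 19.92 and 18.45 TPM. The strand setting of the counts is not given in the sources used here, so reads from the shared bases cannot be told apart by gene.

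The 3 libraries were compared gene by gene, because they are repeats of 1 sample and should differ by little more than sampling. A chi-square test of homogeneity was applied to the rounded estimated counts, divided by its median inflation over all genes (6.04-fold), with Benjamini-Hochberg adjustment over all genes with at least 30 counts. Of 13949 genes tested, 535 (3.84%) passed at 0.05, and 1 of 39 members did (2.56%). Oas2 had too few counts to be tested. Unadjusted, 4 of the 39 members and 1471 of the 13949 genes (10.5%) had a p under 0.05. Without the division, 7629 genes (54.7%) and 19 of the 39 members (48.7%) passed. In both forms the members' share lies near that of all genes. The ratio of the highest to the lowest library was under 1.2-fold for 15 members and 1.5-fold or more for 9. Its median was 1.247 over members and 1.265 over all genes. With a minimum of 100 counts the medians were 1.246 and 1.204, so their order depends on the count minimum. Library 1 was highest for 13 members, library 2 for 14 and library 3 for 12. The counts by fold and by highest library were not made over all genes.

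Parp14, the gene of a large ADP-ribosyltransferase at chr16:35832874-35871544, was the member that passed. It had 40.47, 24.36 and 27.48 TPM, with library 1 standing above the other two. Its normalised counts differed 1.76-fold between library 1 and library 2, with an adjusted p of 5.55e-07 in the inflation-divided chi-square test of the 3 libraries. The second deposited gene table, counted separately on an older annotation, gave Parp14 1314, 728 and 873 reads in the same order. In the chi-square test of the estimated counts, the adjusted p was 0.316 without library 1, 0.0433 without library 2 and 4.22e-06 without library 3. With the inflation taken within bins of mean count, a setting chosen after seeing the data, that test of all 3 libraries gave 0.00232. Dtx3l and Parp9, the next members along the chromosome, differed 1.04-fold and 1.14-fold and did not pass. Passing genes are more frequent at high counts: 6.48% passed among genes with a mean count of 1000 to 3000, where Parp14 lies, and 30.1% at 3000 or more. The cause of the Parp14 difference was not tested.

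**Figure D3:**
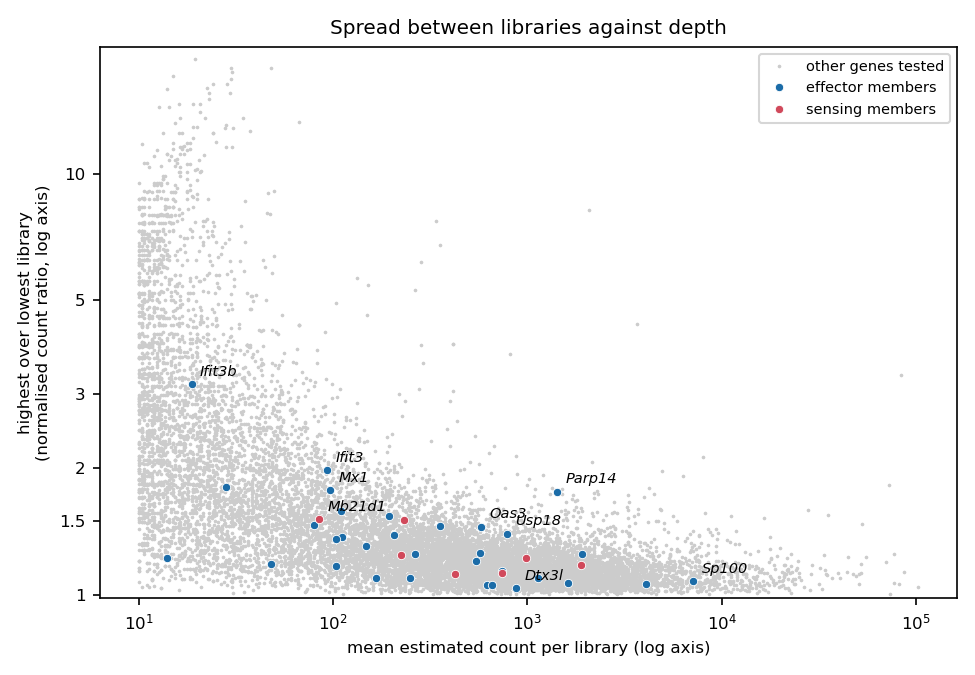
Ratio of the highest to the lowest library in normalised counts (log axis) against the mean estimated count per library (log axis), for the 13949 genes tested (grey), effector members (blue) and sensing members (red). Members follow the grey cloud, which narrows as counts rise, and Parp14 lies at 1.76-fold where its neighbours in depth lie mostly below 1.29-fold.

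The pathway around the members was read in a list of 51 genes: ligands, receptor and kinases, transcription factors, other sensors, clearance enzymes and inhibitors. Of these, 41 reached 1 TPM in every library and 35 had a mean of at least 10 TPM. In the library test, 44 were tested and 3 passed, against 3.84% of all genes: Jak1, Lsm14a and Rnf125, each highest in library 2 and differing 1.13-fold, 1.27-fold and 1.18-fold. The other 7 had under 30 counts.

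The type I interferon ligand genes of the list were close to absent, and the list does not hold every Ifna gene. Ifnb1 had 4, 1 and 6 counts in libraries 1, 2 and 3 (0.57, 0.16 and 0.97 TPM). Ifna2 and Ifnk had 0 counts in every library, which allows up to 0.185, 0.202 and 0.212 CPM by the rule of 3 counts (counting error only). Ifng, the type II interferon gene of helper and killer T cells, was at 612 ± 31.4 TPM (SD, n = 3 libraries).

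The receptor and its signalling chain were present throughout. Jak1 had a mean of 538 ± 13.8 TPM and the receptor gene Ifnar1 189 ± 11.5 TPM (SD, n = 3 libraries). Of the genes of the ISRE-binding complex, Irf9 had 40.7 ± 0.293 TPM and Stat2 24.8 ± 2.11 TPM. Among interferon regulatory factors and their kinases, Irf7, itself interferon-induced and the main driver of interferon alpha genes, had 349 ± 25.5 TPM and Irf1 340 ± 26.0 TPM. The median of these 9 genes was 70.9 ± 6.08 TPM.

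Sensing outside the members was uneven. Of the 7 endosomal sensing genes, the adaptor gene Myd88 had 51.9 ± 2.11 TPM and the trafficking chaperone gene Unc93b1 33.7 ± 5.13 TPM (SD, n = 3 libraries), and the median of the 7 was 0.943 ± 0.186 TPM. The 4 Toll-like receptor genes of the list, Tlr3, Tlr7, Tlr8 and Tlr9 (named after their values were seen), ranged from 0.01 to 0.943 TPM on average. Among other sensors, the RNA-binding antiviral protein gene Zc3hav1 had 234 ± 9.52 TPM and Pqbp1, a co-sensor of reverse-transcribed DNA, 153 ± 24.2 TPM.

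Genes that clear nucleic acid or restrain the response were also present. Rnaseh2c, a subunit gene of the RNase H2 complex, had 87.9 ± 1.18 TPM and Trex1, the cytosolic DNA exonuclease gene, 84.1 ± 2.45 TPM (SD, n = 3 libraries). The ISG15-activating enzyme gene Uba7 had 120 ± 4.82 TPM and the ISG15 ligase gene Herc6 20.2 ± 1.10 TPM. Of the negative regulators, Rnf125, a ubiquitin ligase for the RNA helicases, had 543 ± 60.4 TPM and Socs3, an inhibitor of JAK kinases, 420 ± 30.6 TPM.

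**Figure D4:**
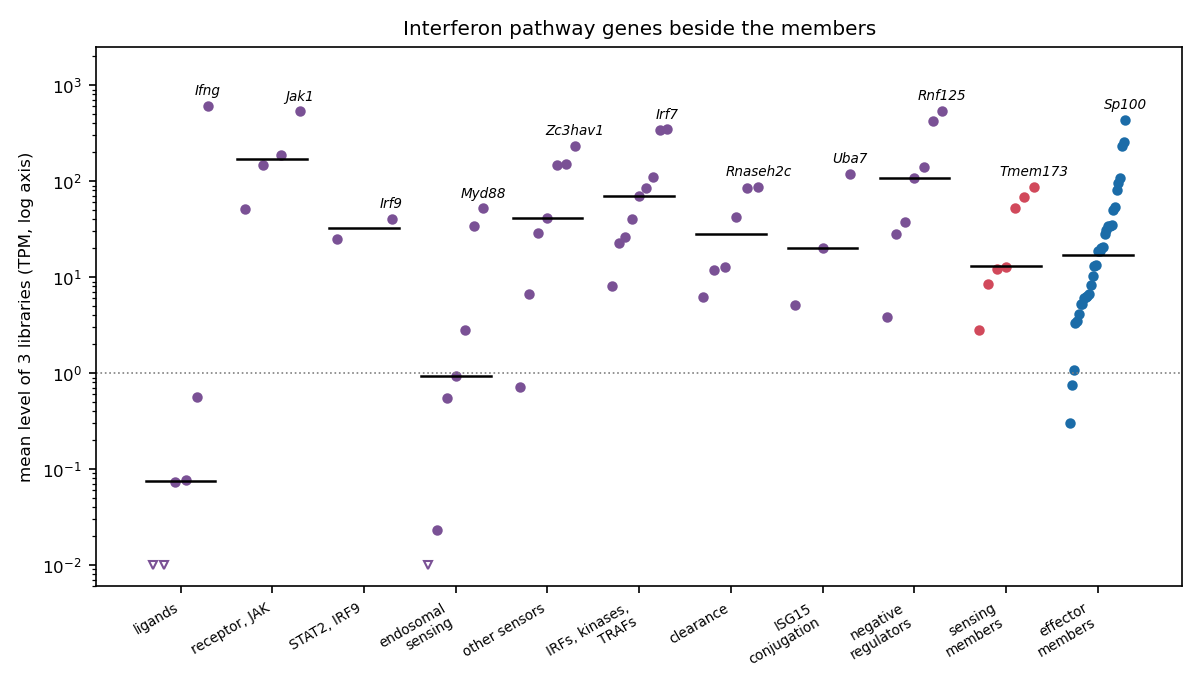
Mean TPM of 3 libraries on a log axis for the 51 pathway genes by role (purple), the 7 sensing members (red) and the 33 effector members (blue), with a bar at each median, the highest gene named and a dotted line at 1 TPM. Open triangles mark genes with a mean of 0.01 TPM or less, and the ligands other than Ifng and most endosomal sensing genes lie below the line.

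A gene's TPM includes annotated transcripts that code for no full protein, so the members were also read by transcript. Of the 31 members with several annotated transcripts that reached 1 TPM in every library, the median share of TPM on transcripts annotated as protein coding was 87.2%, and 3 members (9.68%) were under 50%. Over all 9266 protein-coding genes of that kind the median was 81.9% and 18.3% were under 50%. The 3 members were Tmem173, Oasl2 and Mx1; the latter pair is named after its values were seen.

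The leading Tmem173 transcript was Tmem173-206, annotated as a retained intron, with 39.3%, 38.5% and 44.2% of the gene's TPM. All coding transcripts of Tmem173 together took 18.8%, 22.1% and 24.5%, or 21.8% ± 2.88 (SD, n = 3 libraries). On coding transcripts alone, Tmem173 had 17.18, 17.09 and 22.87 TPM, below every library of Zbp1 (44.56, 44.19 and 48.33 TPM) and Ddx58 (40.17, 44.66 and 37.09 TPM). Tmem173 thus led the 7 sensing genes by gene TPM and was the third by coding TPM. For Mx1 coding transcripts took 14.5% ± 4.55, the leading transcript Mx1-205 is annotated for nonsense-mediated decay (53.3% on average), and Mx1-201, the longest coding model with 627 codons, was listed at 0 in every library. By posterior mean the Mx1 coding share was 29.6% ± 0.636, Mx1-205 held 22.8% and Mx1-201 2.78%, so these Mx1 shares depend on read assignment. Oasl2 had 16.4% ± 10.3 of its TPM on coding transcripts and led with the nonsense-mediated decay transcript Oasl2-205 (45.9%). The coding share by posterior mean was 24.9% ± 7.00 for Oasl2 and 25.8% ± 2.69 for Tmem173. Ifi44, at 45.7%, and Eif2ak2, at 49.6%, were also under 50% in that estimate.

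Adar gives a long protein form from an interferon-inducible promoter and a shorter, constitutive form. The transcripts Adar-203 and Adar-201, with 1178 and 1152 codons, took 41.4% ± 4.64 and 40.4% ± 4.18 of Adar TPM (SD, n = 3 libraries). Together these long-coding transcripts held 86.2%, 80.6% and 78.8% in libraries 1, 2 and 3. Adar-202, with 930 codons, was listed at 0 in all 3 libraries. Adar-202 and Adar-203 have nearly the same length, 5909 and 5871 bases, and the assignment SD of Adar-203 reached 24.2% of its count. By posterior mean, Adar-202 held 12.4% ± 1.34 and the long-coding transcripts 64.6% ± 4.75. The long-coding transcripts led in both estimates, while the absence of Adar-202 holds in only 1 of them.

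Sp100 was spread over several coding transcripts, led by Sp100-202 with 37.7% ± 0.288 and Sp100-204 with 19.5% (SD, n = 3 libraries), and 96.0% ± 1.34 of its TPM was coding. Oas1a has a single annotated transcript. Ifi27 was divided between the coding transcript Ifi27-205 (43.0%) and the retained intron transcript Ifi27-209 (35.5%). Ifi35 and Xaf1 each held a coding transcript beside one annotated for nonsense-mediated decay, with Ifi35-201 at 53.1% and Ifi35-203 at 37.99%, and Xaf1-202 at 48.3% and Xaf1-201 at 37.1%.

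Zbp1 was divided almost evenly between a short coding transcript, Zbp1-202 with 187 codons (45.7%), and the long form Zbp1-201 with 411 codons (41.9%). Parp14 held 64.0% on Parp14-201, its full coding model of 1817 codons, and 34.5% on the retained intron transcript Parp14-202. These shares were close between libraries: Zbp1-201 stood at 43.6%, 39.7% and 42.4%, and Parp14-201 at 62.7%, 61.0% and 68.4%, with library 1 between the others for Parp14. Several of these retained intron models are short, and TPM gives a short model a larger share than its reads alone would.

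**Figure D5:**
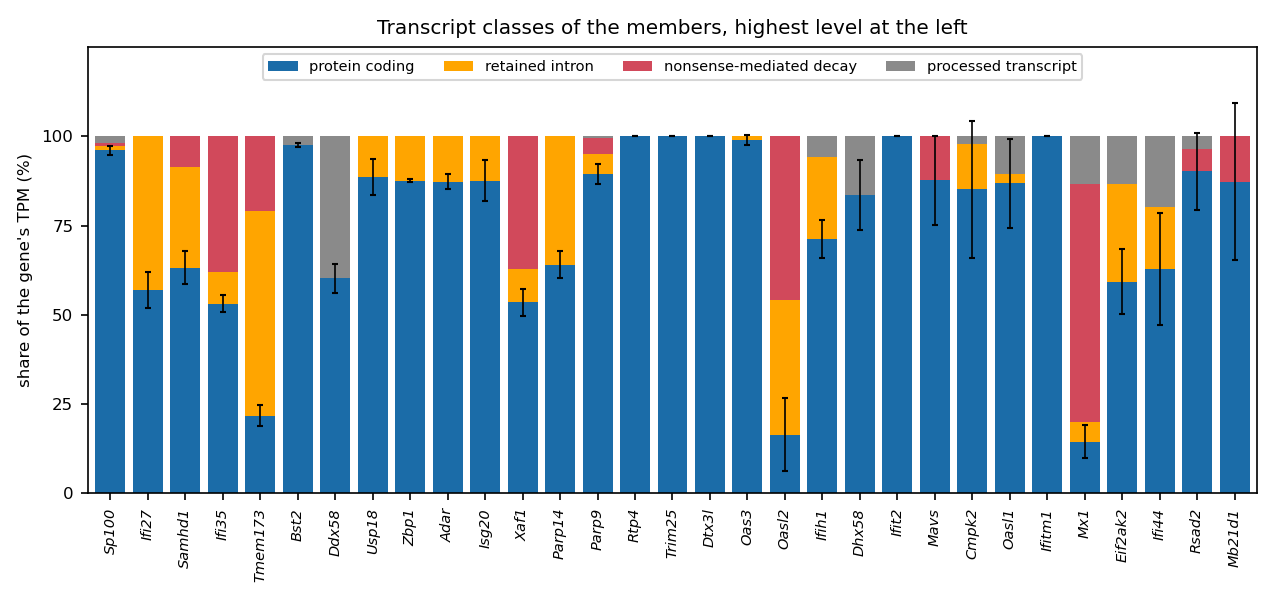
Share of each gene's TPM (%) on transcripts annotated as protein coding, retained intron, nonsense-mediated decay or processed transcript, as the mean of 3 libraries, for the 31 members with several transcripts and 1 TPM in every library. Error bars give the SD of the coding share (n = 3 libraries), and Tmem173, Oasl2 and Mx1 are the bars with a coding share under 50%.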

How the data were processed

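Polyadenylated RNA libraries (3 technical replicates of 1 mouse, 1 group, fragments of 100 to 300 bases per the labels) were analysed. Per the file headers, the authors deposited a gene and a transcript table for each library with expected counts (estimated counts that share ambiguous reads), TPM, FPKM, posterior mean TPM and a posterior SD of each count, and each transcript's percent of its gene, on mm10 with GENCODE M21. A second deposited gene table for each library holds whole-number counts on GENCODE M4. The quantifier, counter, strand setting, sorting and library kit are not given in the sources at hand.

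Rows that name no mouse gene (tRNAs, spike-ins and a phage) took 0.188%, 0.579% and 0.240% of counts in libraries 1, 2 and 3 and entered neither library sizes nor tests. Totals over genes were 16251564, 14878641 and 14152590. Levels are the deposited TPM, as mean ± SD over the 3 libraries. Expected counts were rounded to whole numbers, scaled by TMM (edgeR 4.0.16 in R 4.3.3), and tested for each gene by a chi-square test on 2 degrees of freedom, divided by the median inflation over all genes with at least 30 counts, with Benjamini-Hochberg adjustment. With 1 group there is no contrast for a quasi-likelihood test. Library 1, 2 and 3 are the labels' technical replicate numbers.

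The members and the pathway and marker lists were chosen with earlier results of these data known. One pathway gene is not reported here. Values in every library are given for the 12 highest members, all sensing members, members that passed the test or fell under 1 TPM, and paralog or neighbour groups; transcripts are named for Adar, Oas1a, Sp100 and the 6 other highest members with a second transcript at 20% or more; of the pathway, the highest pair for each role and genes at 0; of the markers, the highest of each cell type. Other settings were size factors of DESeq2 1.42.0, library totals, stricter and looser count minimums, the undivided test, the second table, other level units and detection limits, a longer motif and leaving out each library. Promoters are RefSeq windows on GRCm38.p6, and positions and coding lengths come from GENCODE M21. Python 3.11.15, numpy 2.4.6, pandas 2.3.3, scipy 1.17.1, matplotlib 3.10.9 and Biopython 1.88 were used.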

Additional observations from a re-analysis of the deposited data

How the results depend on the processing

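Of all genes, 1568 of 36258 (4.32%) passed the library test with at least 1 count in all, 7629 without the division, 161 in the second gene table, and 202 with the inflation taken within bins of mean count, a setting chosen after seeing the data. Leaving out each library gave 33 to 377. Of members, 4 of 40 passed with at least 1 count (Adar, Oas3, Parp14 and Usp18), 19 of 39 undivided, and 0 to 1 when each library was left out, with Parp14 lost only without library 1. The median level of members was 14.3 TPM by posterior mean, 9.54 in FPKM, 17.3 in CPM and 18.6 over members detected in every library, and 15.4 to 16.2 TPM with each library left out. The effector to sensing ratio was 1.197 by posterior mean, 1.505 over detected members, 1.67 with the Oas genes and Eif2ak2 as sensing, 1.27 to 1.35 with each library left out, and 0.590 on CPM, where it turned, since CPM keeps gene length. Members at a limit of 0.5 TPM numbered 38 and at 5 TPM 29. The level of 19 of 40 members moved by over 1 SD between libraries under the posterior mean, 18 of them downward. Isg15 went from 95.6 to 81.9 TPM and Sp100 from 436 to 375 TPM. This count was not made over all genes, so it cannot be read as particular to the members. No paired analysis was possible because the 3 libraries form 1 group with no second group to pair.

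Low counts limit Oas2, Mx2, Ifit3b and the ligands other than Ifng, and annotated transcript shares depend on read assignment. With 1 mouse, no value says how animals differ.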

Other observations

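Some relatives of the members, looked up after the members' values were known, held higher levels than many members, and others were nearly absent. In the Ifi200 family of interferon-inducible DNA-binding proteins, 9 of 12 genes had a mean of at least 1 TPM and 8 at least 10 TPM. Mndal led with 383.02, 360.82 and 370.51 TPM in libraries 1, 2 and 3, followed by Ifi203 with 215.85, 231.37 and 266.87 TPM. Both lay above Isg15 in every library. Ifi204 had 6.67, 6.70 and 6.71 TPM, and Ifi205, Ifi202b and Ifi207 each averaged under 0.2 TPM.

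Of 8 Schlafen genes, growth regulators of T cells and myeloid cells, 6 had a mean of at least 1 TPM. Slfn2 had 720.15, 811.16 and 694.96 TPM, above Sp100 in every library, and Slfn1 had 85.45, 83.12 and 86.51 TPM. Trim30a, a restraint on inflammatory signalling, had 39.0 ± 3.13 TPM (SD, n = 3 libraries). Among genes named like the members, Ifitm10 had 39.9 ± 4.08 TPM, more than Ifitm1, Ifitm2 or Ifitm3, and Ifit1bl1 had 16.4 ± 2.09 TPM, more than any of the 4 Ifit members. Oas1c had 5.26 ± 1.07 TPM, while Oas1g, at 1.10 ± 0.653 TPM, had an assignment SD that reached 116% of its count in a library. Members included, 4 of 7 Ifitm, 5 of 6 Ifit, 6 of 11 Oas and 3 of 4 Trim30 genes averaged at least 1 TPM. Ifitm6 and Oas1e had 0 counts in every library.

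The full-length Trim25 models took different shares between libraries. Trim25-201 held 48.7% of Trim25 TPM in library 1 and was listed at 0 in libraries 2 and 3, and Trim25-203 was listed at 0 in library 1 and held 54.4% and 52.8% in libraries 2 and 3. By posterior mean the exchange was partial, with 28.6%, 7.55% and 5.65% for Trim25-201 and 20.1%, 46.6% and 47.1% for Trim25-203 in libraries 1, 2 and 3. The assignment SD of Trim25-201 reached 29.6% of its count. The models are 5566 and 5590 bases long with 626 and 634 codons, and the gene's own TPM was 21.32, 19.45 and 19.90.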
